A study of Mus musculus with 6 samples.

Results

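The enzymes of peroxisomal beta-oxidation and the proteins that bring fatty acids into this pathway and carry its products out were examined in the liver of mice given trichloroethylene (TCE), an industrial solvent. The 9 genes are Abcd3, Acox2, Ehhadh, Hsd17b4, Acaa1a, Acaa1b, Decr2, Ech1 and Crot. They were taken by their symbol in the array annotation and are 9 of 24239 gene symbols on the array. The set was chosen with earlier results of these data known. Each had 1 probe, and all 9 probes were well above background on all 6 arrays.

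The control group was 3 male B6C3F1 mice that received corn oil by mouth for 5 days, and the TCE group was 3 male B6C3F1 mice that were dosed daily with TCE in corn oil, at 1000 mg per kg of body weight, over the same 5 days. B6C3F1 is a hybrid laboratory mouse strain, the mice were 7 weeks old by the labels, and corn oil, itself a fat that the liver oxidizes, was common to both groups. Total RNA of the whole liver of each mouse was labeled with Cy3 and hybridized to an Agilent mouse array of its own, so that the comparison asks how hepatic mRNA levels in the TCE mice differed from those in the mice given the oil alone. Values are log2 signals after quantile normalization, where 1 unit is a factor of 2, and a log2 change is the TCE mean minus the control mean.

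Peroxisomes shorten fatty acids that mitochondria handle poorly: very long-chain, branched-chain and dicarboxylic acids, and the side chain of bile acid precursors. The cycle has the same chemistry as in mitochondria (oxidation, hydration, a second oxidation and thiolysis), but its first enzyme passes electrons directly to oxygen and forms hydrogen peroxide, and the shortened products leave as carnitine esters or free acids. In rodent liver many genes of this pathway are known targets of the nuclear receptor PPAR-alpha, which pairs with RXR and binds direct repeats of the letters AGGTCA.

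Arrays of the same group correlated with Pearson's r of 0.987 to 0.990 in controls and 0.978 to 0.987 in TCE mice across 22731 detected probes, which are not independent replicates, and arrays of different groups with 0.971 to 0.982. The array of control mouse 1 lay on a separate slide from the other 5. All 11 hepatocyte markers were detected and 0 of them were past the threshold, with a median log2 change of -0.10. Their summed signal was 1650000 to 1720000 in controls and 1530000 to 1620000 in TCE mice, which did not overlap. For Serpina1a and Alb, the brightest of them, the groups overlapped. Every TCE mouse lay above every control for 1 marker (Tat) and below for 3 (Apoa1, Fah and Cps1). Over all genes these shares were 17.1% and 10.8%. The summed signal of the 3 detected lymphocyte markers of 8 was 16200 to 19900 in controls and 5920 to 15800 in TCE mice, which also did not overlap. Cd3d, Ms4a1, Cd8a and Klrb1c were among the markers not detected. Most of that sum came from Cd4, the brightest of the 3. Its log2 signals were 13.81, 14.09 and 14.14 in controls and 13.25, 12.20 and 13.78 in TCE mice (limma adjusted p = 0.279). For Nkg7 and Cd3e the groups overlapped. The ranges of the summed markers overlapped between the groups for Kupffer cells and macrophages (10 detected of 10 on the array), neutrophils (3 of 5), bile duct (3 of 6), endothelium (6 of 6) and stellate cells (6 of 7). Within these lists, and named after their values were seen, the groups did not overlap for Lrat, a gene of stellate cells (log2 change -1.35, limma adjusted p = 0.0676), Stab2, a gene of sinusoidal endothelium (-0.54, limma adjusted p = 0.345), and S100a8, a gene of neutrophils (1.19, limma adjusted p = 0.0886). No marker of these lists was past the threshold, and the part of cell composition in the results was not tested. In RNA of whole liver, fewer cells of a type and less RNA per cell cannot be told apart.

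Of the 9 genes, 3 rose past the threshold and 0 fell. To pass, a gene needed at least a 2-fold change and, by limma (linear models with a variance estimate shared among probes), a Benjamini-Hochberg adjusted p that did not exceed 0.05. Over all 13284 detected genes the percentage past it was 1.3 for higher and 0.429 for lower. By the adjusted p alone, with no limit on the fold, the counts among the 9 were again 3 higher and 0 lower, where the percentages over all genes were 1.8 and 0.587. Ehhadh, the bifunctional enzyme that hydrates and dehydrogenates straight-chain intermediates, rose 9.55-fold, Acaa1b, a thiolase, rose 4.01-fold, and Ech1, an auxiliary isomerase, rose 2.18-fold. In 8 of the 9 genes every TCE mouse lay above every control mouse, Acox2 being the exception, against 17.1% of all genes. The median log2 change of the 9 genes was 0.73, and that of all detected genes was 0.02. The other 6 genes were short of the threshold, 5 of them with fold changes between 1.26 and 1.76 and Acox2 with 0.92.

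**Figure D1:**
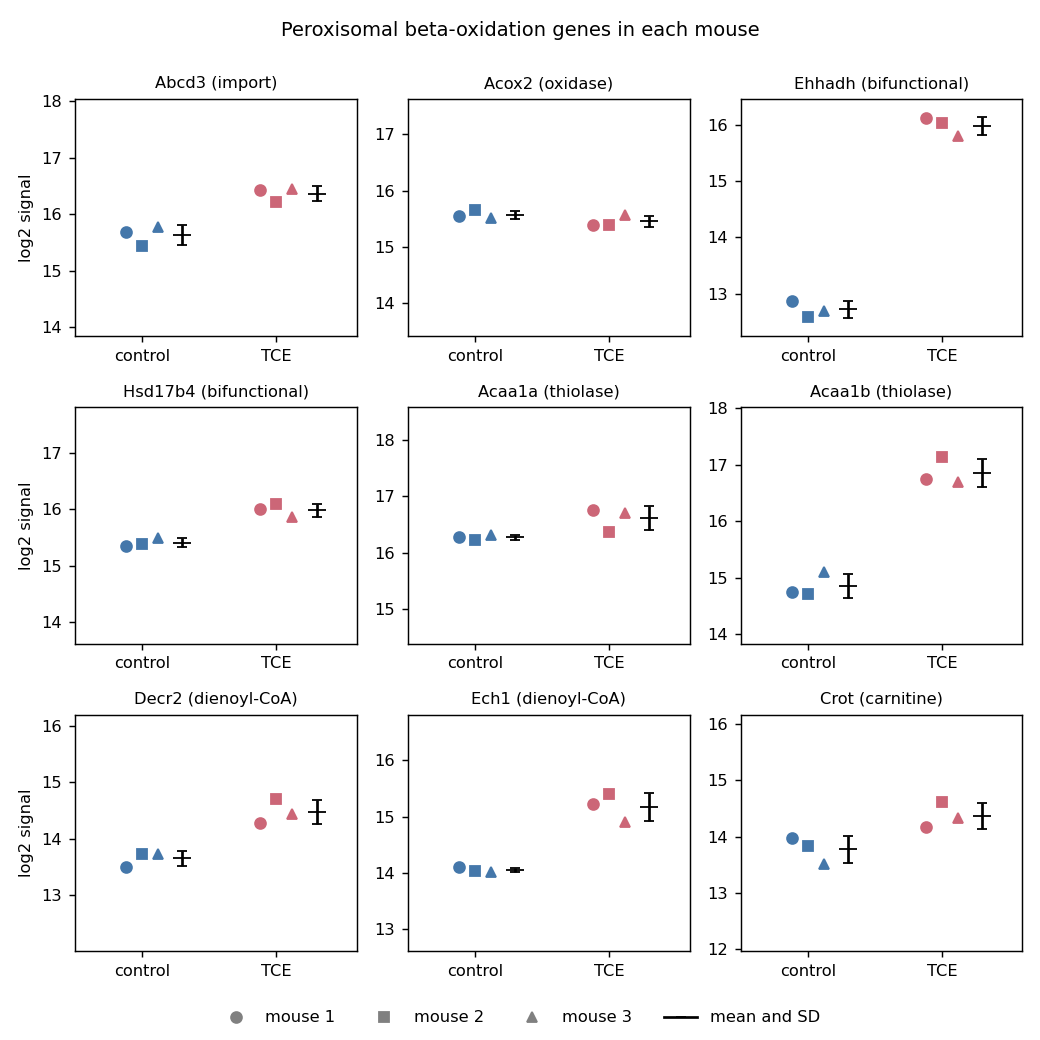
Log2 signal of each gene (y axis, the same span of 4.2 units in every panel) in control mice (blue) and TCE mice (red), with a symbol for each mouse and the mean and SD in black, n = 3 per group. Ehhadh, Acaa1b and Ech1 lay highest above their controls, and the groups overlapped for Acox2.

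The starts of 3 of these genes are shown because they hold the gene that rose most and the 2 thiolases, which catalyze the same step and of which 1 passed the threshold. Each is the 250 bases before the RefSeq transcription start, 5′ to 3′ on the gene's strand, in build GRCm38.p6. Ehhadh lies at chr16:21787835-21788084 on the minus strand, Acaa1a at chr9:119341044-119341293 on the plus strand and Acaa1b at chr9:119157094-119157343 on the minus strand. Capitals mark the closest match on either strand to the direct repeat AGGTCA, any 1 base, AGGTCA, and the letters ATTGGCT, which were chosen after the sequences were seen.
Ehhadh: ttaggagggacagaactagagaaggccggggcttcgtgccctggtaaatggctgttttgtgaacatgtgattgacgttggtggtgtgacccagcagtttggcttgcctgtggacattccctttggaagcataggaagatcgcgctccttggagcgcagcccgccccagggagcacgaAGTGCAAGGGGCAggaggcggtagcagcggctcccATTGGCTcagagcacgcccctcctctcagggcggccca
Acaa1a: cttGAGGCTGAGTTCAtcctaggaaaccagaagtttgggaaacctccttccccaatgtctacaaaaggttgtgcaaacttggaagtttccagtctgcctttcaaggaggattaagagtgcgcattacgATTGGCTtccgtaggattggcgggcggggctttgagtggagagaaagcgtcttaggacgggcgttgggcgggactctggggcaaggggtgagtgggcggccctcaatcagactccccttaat
Acaa1b: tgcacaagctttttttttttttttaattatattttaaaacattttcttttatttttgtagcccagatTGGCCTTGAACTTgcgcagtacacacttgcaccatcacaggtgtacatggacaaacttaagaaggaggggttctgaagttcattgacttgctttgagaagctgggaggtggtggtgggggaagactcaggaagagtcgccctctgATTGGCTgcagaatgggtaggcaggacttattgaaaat

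The direct repeat was found in 0 of these 3 windows and in 0.0396% of all mouse promoter windows. At so low a share, a count of 0 cannot tell these windows from others. Of the 12 fixed letters of the repeat, the best match differed at 4 in Ehhadh, at 5 in Acaa1a and at 4 in Acaa1b, where it lay on the opposite strand. Of 32851 mouse promoter windows of 300 bases, from 250 before to 50 after the start, 79.8% held a match with at most 4 differences. RefSeq windows of 8 of the 9 genes were searched, 10 windows in all, and Hsd17b4 was left out of the search. Of these 10 windows, 0 held AGGTCA on either strand, which 16.3% of all windows held. The fewest differences, 2, were in the window of the alternative start of Acox2, the gene whose groups overlapped, and 3.86% of all windows had 2 or fewer. The letters ATTGGCT, an inverted CCAAT box, were in the windows of Ehhadh, Acaa1a and Acaa1b alone among the 8 genes, and in 7.86% of all windows. They were picked from these sequences, so their presence here follows from the choice and cannot be tested against that share. The box was at 38 bases before the start in both Ehhadh and Acaa1b (in Acaa1b also once after the start). In Acaa1a it was at 122 before the start. It was shared by the thiolase that passed the threshold and by the one that did not. A match of letters is a description of these windows and not a binding site. Bases outside the windows were not searched, and an absence within them does not show that a gene lacks a site.

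Import of fatty acids comes first. Abcd3 (PMP70, NM_008991), an ABC transporter of the peroxisomal membrane that takes up branched-chain and long-chain acyl-CoAs, has its probe at chr3:121461892-121461951 of build mm9, on which all probe positions are given. Its log2 signals were 15.69, 15.43 and 15.77 in control mice 1 to 3 and 16.43, 16.21 and 16.45 in TCE mice 1 to 3. The groups did not overlap, and the lowest mouse of each group was mouse 2. The mean went from 15.63 ± 0.18 to 16.36 ± 0.13 (SD, n = 3 each), which gives a log2 change of 0.73 (SE 0.14, 95% interval 0.39 to 1.07), which was short of the threshold (limma adjusted p = 0.0645).

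The oxidase of the set was the exception. Acox2 (NM_053115, chr14:9058141-9058200) oxidizes branched-chain acyl-CoAs and the bile acid precursors that are shortened on the way to cholic and chenodeoxycholic acid. Its log2 signals were 15.56, 15.65 and 15.52 in controls and 15.40, 15.39 and 15.57 in TCE mice. TCE mouse 3 lay within the control range, so the groups overlapped, and the log2 change was -0.12 (SE 0.11, 95% interval -0.39 to 0.15, limma adjusted p = 0.622). This interval leaves room for a fall or a small rise, but not for a rise of the size seen in any of the 3 genes past the threshold.

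Hydration and the second oxidation are carried out by 2 bifunctional proteins that make intermediates of opposite stereochemistry. Ehhadh (NM_023737, chr16:21761914-21761973), the L-bifunctional protein, is known for its part in the oxidation of dicarboxylic acids. Its log2 signals were 12.88, 12.59 and 12.70 in controls and 16.11, 16.02 and 15.80 in TCE mice. The lowest TCE mouse was far above the highest control, and the mice of a group lay close together. The mean rose from 12.72 ± 0.15 to 15.98 ± 0.16 (mean ± SD, 3 mice per group), for a log2 change of 3.26 (SE 0.14, 95% interval 2.92 to 3.60, limma adjusted p = 0.000766). By the size of its rise it was gene 26 of 13284. The call held in all 6 fits that left out 1 mouse, in which the log2 change was 3.18 to 3.35 and the limma adjusted p 0.00485 to 0.0081.

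Hsd17b4 (NM_008292) encodes the D-bifunctional protein, which handles branched-chain and bile acid intermediates as well as very long-chain ones. Its log2 signals were 15.34, 15.38 and 15.50 in controls and 16.00, 16.09 and 15.86 in TCE mice. All TCE mice were above all controls, by a much smaller step than for Ehhadh. The log2 change was 0.58 (SE 0.12, 95% interval 0.29 to 0.86), or 1.49-fold, with a limma adjusted p of 0.0754.

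The last reaction of the cycle, the release of acetyl-CoA, is catalyzed by 3-ketoacyl-CoA thiolase, which the mouse has in 2 closely related copies. On mm9 the probe of Acaa1a (NM_130864) is at chr9:119259353-119259412 and that of Acaa1b (NM_146230) at chr9:119057326-119057385, on opposite strands and 202 kb apart, with 4 protein-coding genes in between (Slc22a14, Slc22a13, Oxsr1 and Myd88). Since copies of a gene can share signal on an array, the first 30 bases of both probes are shown as the annotation gives them.
Acaa1a probe: ccctggttgcaaagccatttgtacctttga
Acaa1b probe: tctgcgtgggacactcagcagtggaggagt
The longest stretch that the full probes share is 6 bases. Binding of the transcript of one copy to the probe of the other was not tested.

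Acaa1b had log2 signals of 14.75, 14.71 and 15.10 in controls and 16.74, 17.14 and 16.70 in TCE mice. TCE mouse 2 was the highest, and the groups were well apart. The mean rose from 14.86 ± 0.21 to 16.86 ± 0.25 (mean ± SD, 3 mice per group), for a log2 change of 2.01 (SE 0.18, 95% interval 1.58 to 2.43, limma adjusted p = 0.00629), which held in all 6 fits without 1 mouse (1.86 to 2.11, limma adjusted p 0.0208 to 0.0371). With the replicate number as a block, although the numbers were not found to pair the mice, the limma adjusted p was 0.084.

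Acaa1a had log2 signals of 16.28, 16.22 and 16.32 in controls and 16.76, 16.36 and 16.71 in TCE mice. TCE mouse 2, the highest for the other thiolase, was here the lowest and lay just above the controls. The log2 change was 0.34 (SE 0.14, 95% interval -0.00 to 0.68), or 1.26-fold, and did not pass the test (limma adjusted p = 0.279).

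Unsaturated fatty acids need auxiliary enzymes that move or reduce their double bonds before the cycle can go on. Decr2 (NM_011933, chr17:26218760-26218819), the peroxisomal 2,4-dienoyl-CoA reductase, had log2 signals of 13.50, 13.74 and 13.73 in controls and 14.27, 14.71 and 14.44 in TCE mice. The groups did not overlap. The log2 change of 0.82 (SE 0.15, 95% interval 0.45 to 1.19), or 1.76-fold, was short of the threshold on both counts (limma adjusted p = 0.0616).

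Ech1 (NM_016772), a delta(3,5)-delta(2,4)-dienoyl-CoA isomerase that is found in peroxisomes and mitochondria, has a probe on chromosome 7 that spans positions 29616256 to 29616416. Its log2 signals were 14.10, 14.04 and 14.02 in controls and 15.22, 15.40 and 14.91 in TCE mice. The controls lay within 0.1 of each other, and the TCE mice were spread more widely and all higher. The mean rose from 14.06 ± 0.04 to 15.18 ± 0.25 (mean ± SD, 3 mice per group), for a log2 change of 1.12 (SE 0.15, 95% interval 0.76 to 1.49, limma adjusted p = 0.0259). This call rested on the full set of mice: the rise was 1.00 to 1.25 in the fits without 1 mouse, but the limma adjusted p was 0.0301 to 0.119 and stayed at or below 0.05 only without TCE mouse 3. Among the 5 mice of the shared slide the rise was 1.16 with a limma adjusted p of 0.0887.

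Crot (NM_023733, chr5:8966430-8966489), the carnitine octanoyltransferase that makes carnitine esters of the shortened acyl-CoAs for export to mitochondria, had log2 signals of 13.98, 13.84 and 13.52 in controls and 14.16, 14.62 and 14.34 in TCE mice. The gap between the highest control and the lowest TCE mouse was small, and the spread within each group was among the widest of the 9 genes. The log2 change was 0.60 (SE 0.18, 95% interval 0.16 to 1.03), or 1.51-fold, with a limma adjusted p of 0.164.

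**Figure D2:**
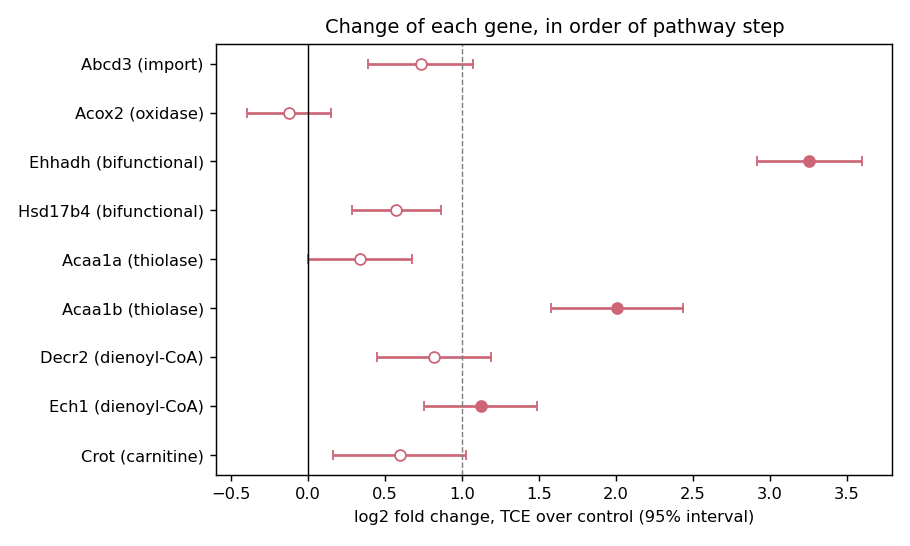
Log2 change of TCE over control (x axis) with its 95% interval from limma for the 9 genes, from import at the top to carnitine esters at the bottom, where filled points are past the threshold and the dashed line is a fold change of 2. Ehhadh (3.26), Acaa1b (2.01) and Ech1 (1.12) are filled, and the intervals of Acox2 and Acaa1a reach 0.

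The mice of the TCE group did not differ much in the mean over the genes. The mean shift of the 9 genes from the control mean was 1.02, 1.11 and 0.98 log2 units in TCE mice 1, 2 and 3, and 0.01, -0.04 and 0.02 in the controls. TCE mouse 2 had the highest signal of its group for 5 genes (Hsd17b4, Acaa1b, Decr2, Ech1 and Crot) and the lowest for 3 (Acox2, Acaa1a and Abcd3), so no mouse was highest throughout.

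Enzymes with like reactions were set against each other within each mouse, for 6 pairs. The difference of their log2 signals was centred on its control mean, and the groups were compared with an exact permutation test (two-sided), which with 3 mice against 3 cannot give a p below 0.1. Between the bifunctional proteins, Ehhadh minus Hsd17b4 was 2.80, 2.62 and 2.63 in TCE mice and 0.22, -0.11 and -0.11 in controls. The difference of the changes was 2.68 (SD 0.19 in controls and 0.10 in TCE mice, exact p = 0.1, adjusted over the 6 pairs 0.2), higher in all 3 TCE mice than in any control. Between the thiolases, Acaa1b minus Acaa1a was 1.41, 2.19 and 1.40 in TCE mice and -0.12, -0.09 and 0.20 in controls, a difference of 1.67 (SD 0.18 and 0.46, exact p = 0.1, adjusted 0.2). TCE mouse 2, in which the thiolases went furthest apart, widened this spread, but the groups did not overlap.

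The other pairs set a peroxisomal enzyme against a mitochondrial counterpart. Ehhadh exceeded Hadha, a subunit of the mitochondrial trifunctional protein with a log2 change of 0.74 (limma adjusted p = 0.167), by 2.52 (exact p = 0.1, adjusted 0.2), again without overlap. Acaa1a and the mitochondrial thiolase Acaa2, whose log2 change was 0.45 (limma adjusted p = 0.162), differed by -0.11 (exact p = 0.5, adjusted 0.5). This difference turned to 0.01 with 75th percentile normalization, to 0.02 with normexp background correction and to 0.04 without TCE mouse 2. Without control mouse 1 it was -0.23. Decr2 and its mitochondrial counterpart Decr1 differed by -0.20 (exact p = 0.2, adjusted 0.3), and Crot and Cpt2, the inner carnitine palmitoyltransferase with a log2 change of 0.31 (limma adjusted p = 0.267), by 0.29 (exact p = 0.4, adjusted 0.48; 0.10 without TCE mouse 2 to 0.43 without control mouse 1). In these 3 pairs the mice of both groups overlapped, which leaves differences of the size of their spread undetectable with 3 mice.

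**Figure D3:**
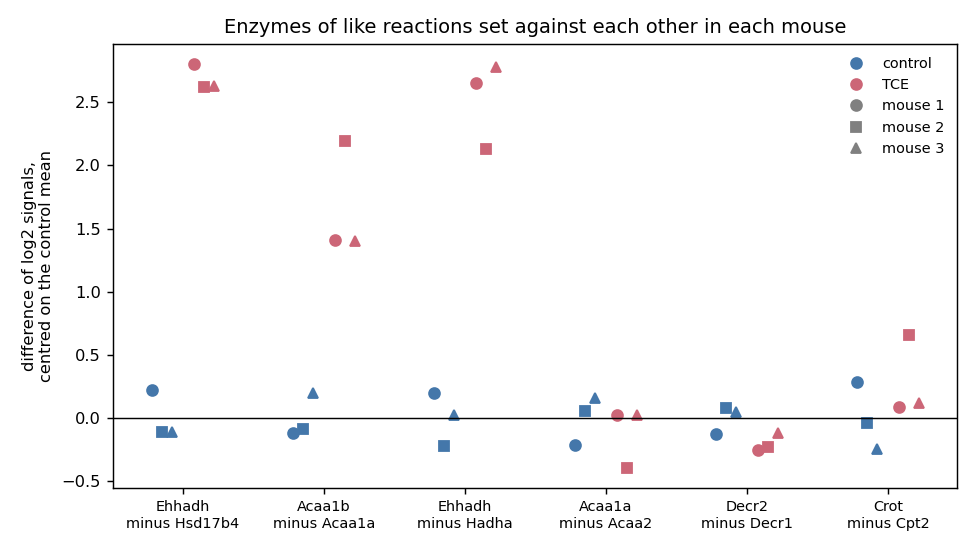
Difference of the log2 signals of 2 enzymes in each mouse, centred on the control mean (y axis), for 6 pairs of enzymes with like reactions (x axis), with control mice in blue, TCE mice in red and a symbol for each mouse. The groups are apart in the pairs with Ehhadh and in Acaa1b minus Acaa1a, where TCE mouse 2 is at 2.19, and overlap in the others.

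Among other genes of peroxisomal oxidation, of which 30 were on the array and 29 detected, 3 rose past the threshold and 0 fell. The list covers further oxidases, transporters, acyl-CoA thioesterases, isomerases and enzymes of alpha-oxidation and glyoxylate metabolism, and its median log2 change was 0.30. With the requirement that probes be well above background on all 6 arrays, the median was 0.18 and 2 genes passed. The 3 encode enzymes that release acyl groups from coenzyme A or export them. Acot5, a peroxisomal acyl-CoA thioesterase that frees fatty acids from coenzyme A, rose from 6.75, 5.97 and 6.01 in controls to 9.77, 9.62 and 9.65 in TCE mice (log2 change 3.44, limma adjusted p = 0.0021). Acot6 of the same gene cluster on chromosome 12 was well above background on 1 of 3 control arrays and on all 3 TCE arrays, so that it was tested only through the group in which it was high. Its log2 signals were 5.09, 4.80 and 4.57 in controls and 6.47, 6.79 and 6.67 in TCE mice, and the fitted change of 1.83 (limma adjusted p = 0.0074) rests on control signals that were mostly near background. Crat, carnitine acetyltransferase, which exports acetyl groups, rose by 1.79 (limma adjusted p = 0.0428), but it passed in 0 of the 6 fits without 1 mouse (limma adjusted p 0.0632 to 0.148). The call of Acot5 held in all 6.

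Of 18 detected genes of mitochondrial fatty acid oxidation, 3 rose past the threshold and 0 fell. The log2 change was above 0 in 17, and over all genes in 7057 of 13284. In 16 every TCE mouse was above every control, against 17.1% of all genes. The median log2 change was 0.52 and the highest 1.16. Eci1, the mitochondrial enoyl-CoA isomerase, rose from 14.68, 14.57 and 14.65 to 15.88, 15.74 and 15.76 (log2 change 1.16, limma adjusted p = 0.00734). Slc25a20, the carnitine-acylcarnitine carrier, rose by 1.05 and Decr1, the dienoyl-CoA reductase, by 1.02 (limma adjusted p = 0.0282 each). Without 1 mouse the call of Slc25a20 held in 1 of 6 fits and that of Decr1 in 0, whereas that of Eci1 held in 5. With the mean of a gene's detected probes, 2 genes of this list passed. Decr2 minus Decr1 was then -0.10 in place of -0.20, with Decr2 unchanged, so that Decr1 rose less by that mean.

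In the list of peroxisome biogenesis genes and catalase, 22 genes were detected, 1 rose past the threshold and 0 fell, with a median log2 change of 0.19. The gene was Pex11a, whose product promotes the elongation and division of peroxisomes. It rose from 14.60, 14.39 and 14.48 to 15.86, 15.90 and 15.45 (log2 change 1.24, limma adjusted p = 0.0215), and without 1 mouse the call held in 1 of 6 fits, that without TCE mouse 3, with changes of 1.16 to 1.39. Cat, the catalase that breaks down the hydrogen peroxide of the oxidases, had a log2 change of 0.23 (limma adjusted p = 0.458) with overlapping groups. In 8 of these 22 genes every TCE mouse lay above every control and in 1 below, and in 14 and 3 of the 29 other peroxisomal genes. Over all genes these shares were 17.1% and 10.8%. The difference between these lists and the 9 genes was not tested.

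**Figure D4:**
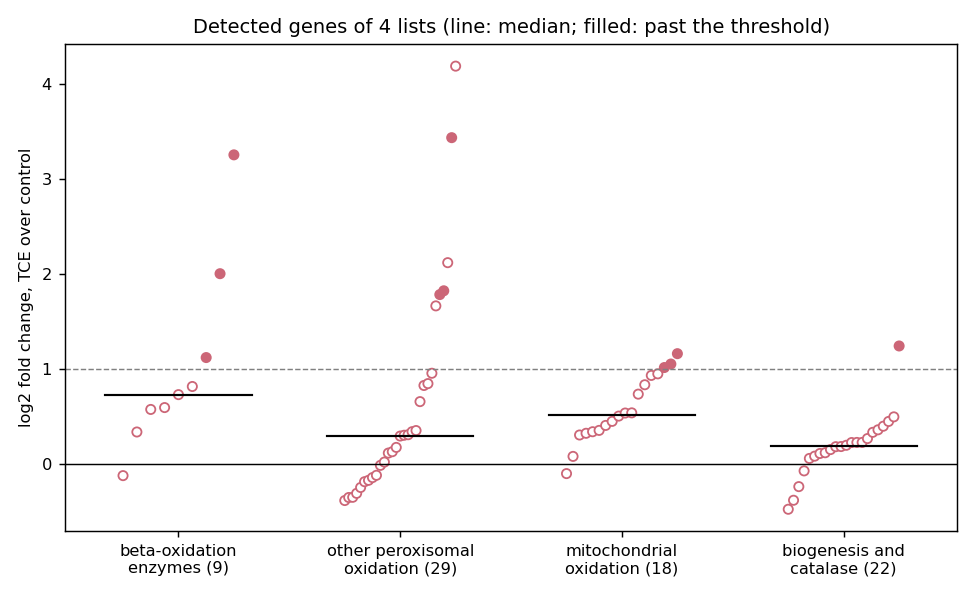
Log2 change of TCE over control (y axis) for each detected gene of 4 lists, with the number of genes below each, the median as a black line (0.73, 0.30, 0.52 and 0.19), filled points past the threshold and a dashed line at a fold change of 2. Filled points number 3, 3, 3 and 1.

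The 5 genes outside the set whose values over the 6 mice were nearest to the mean profile of the 9 were Mmadhc, Angptl4, Gpx2, Decr1 and Gm11223, at a root mean square distance of 0.07 to 0.10 log2 units. The 9 genes themselves were 0.13 (Ech1) to 1.57 (Ehhadh) from it, so the mean stands between genes of very different response. The 5 genes were picked by this distance, so that changes near that mean and small adjusted p-values follow from the choice. Angptl4, a secreted inhibitor of lipoprotein lipase, was higher by 0.98, 1.22 and 0.91 in TCE mice 1, 2 and 3 (log2 change 1.04, limma adjusted p = 0.0191). Mmadhc, which takes part in intracellular cobalamin metabolism, had a log2 change of 0.98 (limma adjusted p = 0.0128) and Gpx2, a glutathione peroxidase, 0.95 (0.0236), both just under the limit of 2-fold. Without 1 mouse, Angptl4, Mmadhc and Gpx2 were each past the threshold in 1 of 6 fits. Gm11223 had 1.05 (limma adjusted p = 0.0145).

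By the annotation of the array, all 9 genes carry the GO term peroxisome, which 0.596% of annotated genes carry, and 7 of them also carry mitochondrion. The term fatty acid beta-oxidation was given to 6 of the 9, leaving out Acaa1b, Decr2 and Ech1. The 3 genes that rose past the threshold lie on chromosomes 16, 9 and 7.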

How the data were processed

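Liver RNA of 6 mice was measured on 1-colour arrays, 1 mouse per array. Mice are numbered by the replicate number in the labels. The titles and the names of the deposited files carry other numbers within the same groups, so which animal a number means is uncertain, but not its group. The authors scanned the arrays and extracted spots with Agilent Feature Extraction, version 10.7.1.1 by the submitters' processing notes. The deposited scanner output gives an intensity per spot after background subtraction and detrending. A deposited table holds the log2 mean of each group after quantile normalization by the authors, not values of single mice, and 6 columns of detection flags that were not used. Its annotation gave gene symbols, GO terms and mm9 positions.

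Control spots and outlier-flagged spots (123 to 189 per array) were left out. Processed intensities were log2-transformed without a pseudocount, repeated spots were averaged to 1 value per probe, and the arrays were quantile normalized, as in the methods. Of 55681 probes, 23538 to 24968 per array were well above background and 0 saturated. The number of arrays limits the precision. A probe entered the fit if all 3 arrays of either group were well above background, which gave 22731 probes of 13284 genes. The model had group as its single term and was run with lmFit and eBayes of limma (version 3.58.1, two-sided) under R (version 4.3.3), beside the packages statmod (1.5.0) and data.table (1.17.8), and p-values were adjusted over all of them. The limma test stood in for the t-test that the methods name. The detected probe with the highest mean stood for a gene. Paired enzymes were compared by exact permutation over 20 ways to choose 3 of 6 mice. The procedure was tested on simulated data.

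Named were all members, the genes of the other lists past the threshold, the mitochondrial partners of the pairs and the 5 genes of nearest profile. Cat was added after its value was seen. Members and lists were chosen with earlier results of these data known. Alternatives were another normalization, background correction (normexp, offset of 50), 2 other filters on dim probes, a block for replicate number or for slide, outlier spots left in, another variance model, the methods' t-test, no fold limit, the mean of a gene's probes, the shared slide alone, and each mouse left out. Other doses, qPCR and DNA methylation were not analysed here.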

Additional observations from a re-analysis of the deposited data

How the results depend on the processing

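The direction of all 9 genes was kept in all 19 alternatives, of which the shared slide and the fit without control mouse 1 are the same fit, and Ehhadh was past the threshold in 19, Acaa1b in 17, Ech1 in 9 and the other 6 genes in 0. Acaa1b was lost under the replicate block and by the methods' t-test after Benjamini-Hochberg adjustment (0.0634), and Ech1 in addition without a filter on dim probes, with slide as a block, on the shared slide and in 5 fits without 1 mouse, the shared-slide fit being 1 of these. Of the 9 genes, 1 was called under the replicate block, 1 by the adjusted t-test and 2 to 3 without 1 mouse. Of the other peroxisomal genes (3 called), 1 was called without the filter, 1 under the replicate block, 6 by the unadjusted t-test, 0 by the adjusted one, 7 with no fold limit and 2 to 4 without 1 mouse. Of the mitochondrial genes (3 called), 2 were called with 75th percentile normalization, 2 with the mean of a gene's probes, 1 with normexp and 1 without the filter. Under the replicate block 0 were called, with slide as a block 1, by the adjusted t-test 1 and with no fold limit 5. On the shared slide 1 was called, and 0 to 2 without 1 mouse. Of the biogenesis genes (1 called), 0 were called without the filter, under the replicate block, with slide as a block, by the adjusted t-test and on the shared slide, and 0 to 1 without 1 mouse. The cause was not tested. Of the paired differences, those of Ehhadh and of Acaa1b kept their sign, and Decr2 minus Decr1 was -0.25 to -0.10.

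Over all genes, 173 were called higher and 57 lower, against 40 and 5 under the replicate block, 106 and 22 with slide as a block, 96 and 26 on the shared slide, 49 and 9 without the filter, and by the t-test 285 and 126 unadjusted or 17 and 3 adjusted. With 1 mouse left out, 75 to 128 were higher and 8 to 40 lower. The replicate numbers do not pair the mice: the deviations of same-numbered mice correlated with r of 0.09, 0.01 and -0.09 across probes.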

Other observations

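Genes of the other peroxisomal list with large fitted changes that missed the threshold are given here, chosen after their values were seen. Acot3, a peroxisomal acyl-CoA thioesterase, had log2 signals of 8.94, 5.96 and 5.70 in controls and 11.24, 11.61 and 10.32 in TCE mice, with a log2 change of 4.19 (limma adjusted p = 0.0796). Control mouse 1, the array on its own slide, stood well above the other controls, and without it the log2 change was 5.24 with a limma adjusted p of 0.0159. Acot4, its neighbor in the same cluster on chromosome 12, had 9.61, 8.55 and 8.39 in controls and 10.78, 10.64 and 10.12 in TCE mice, a log2 change of 1.67 (limma adjusted p = 0.083), and 2.05 without control mouse 1 (limma adjusted p = 0.04). Acot5, which was past the threshold with all mice, was also highest among the controls in mouse 1. The part of the slide in these values was not tested. Abcd2, a transporter of very long-chain acyl-CoAs, had 5.25, 4.04 and 3.14 in controls, of which 1 array was well above background, and 6.61, 6.82 and 5.36 in TCE mice. Its fitted change of 2.12 (limma adjusted p = 0.15) rests on control signals that were mostly near background.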
